A study of Mus musculus with 8 samples.

Results

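Tenascin C (Tnc) and 9 other genes of matricellular and adhesive matrix proteins (Postn, Fn1, Thbs1, Thbs2, Sparc, Spp1, Ctgf, Cyr61 and Tgfbi) were followed in mouse pluripotent stem cells. These 10 genes were selected by name out of 22878 gene entries with 22499 distinct names. They were put together after earlier results of the same libraries had been seen, so their levels are given as a description, with no test. RNA was sequenced from the embryonic stem cell (ESC) line R1 and from 4 secondary induced pluripotent stem cell (iPSC) lines. The iPSC lines came from somatic cells of all-iPSC mice, whose cells carry doxycycline-inducible Oct4, Sox2, c-Myc and Klf4. Line 16-6 was obtained from hematopoietic progenitor cells of bone marrow, line 32 from adipocyte progenitor cells of inguinal fat, S8 from epidermal cells of abdominal skin, and T2 from the lining of the glandular stomach. Doxycycline had been withdrawn before colonies were picked, and the study compared the lines to ask whether the tissue of origin remains visible after reprogramming. R1, 16-6 and 32 had 2 libraries each, described as biological replicates, and S8 and T2 had 1 each, 8 in all. Each tissue of origin is represented by a single line, and R1 is the only ESC line. ESCs and iPSCs alike were grown on mitomycin C-treated mouse embryonic fibroblasts with serum and LIF, the cytokine that maintains mouse pluripotent cells, so fibroblasts were in the dish of every line.

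Matricellular proteins are secreted into the extracellular matrix, where they act less as scaffold than as signals that modulate adhesion, migration and the activity of growth factors through integrins and other receptors. Fibroblasts and other mesenchymal cells make many of them, above all in the embryo and in healing wounds. Several of their genes respond to TGF-beta or to the coactivators YAP and TAZ, which bind DNA with TEAD factors when cells spread or are stretched.

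Levels are given in FPKM, the fragments mapped to a gene scaled by its transcript length and by the depth of the library, all divided by 1 common constant, so levels of different genes are set side by side per transcript length. The confidence limits that come with them implied 15.5 to 16.7 fragments per library in units of 1000000. For S8 and T2 the limits implied 16.5 and 16.7, although the study listed more reads for these lines than for the others. Between 62.4 and 96709 fragments stood behind a member's value in a library. Intervals around single values cover counting error only. Pluripotency markers were present in every library, with Pou5f1 (Oct4) at 485 to 1020 FPKM and Nanog at 80.8 to 327, and all 10 listed pluripotent cell markers were at 1 FPKM or more. The 14 listed fibroblast markers summed to 918 and 953 FPKM in R1, 1647 and 1622 in 16-6, 69.3 and 70.1 in 32, 394 in S8 and 557 in T2. No library had a fibroblast marker at 0. S8 and T2 stood apart technically, with more reads and a lower mapped share by the read summary of the study. In the deposited values, the 10 highest gene entries held 13.6% and 12.7% of their FPKM total, against 19.2% to 26.5% in the 6 other libraries. These features cannot be told apart from the difference between S8 or T2 and the other lines. In bulk RNA, fewer cells of a type and less RNA per cell cannot be told apart.

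The promoter windows of 7 of the 10 members were found in RefSeq (build GRCm38.p6), in 10 entries that each run from 250 bases before to 50 bases after an annotated start. Tnc and Postn have 2 entries each, and the one at the downstream start is shown for both. The windows of Tnc and Postn, the members with the widest ranges between lines, and of Cyr61, the member with the narrowest, are shown. The Tnc window lies at chr4:64046887-64047186 on the minus strand, the Postn window at chr3:54360857-54361156 on the plus strand, and the Cyr61 window, listed under the newer symbol Ccn1, at chr3:145649936-145650235 on the minus strand. Each is written 5′ to 3′ along the gene, with the motifs found in capitals.
Tnc: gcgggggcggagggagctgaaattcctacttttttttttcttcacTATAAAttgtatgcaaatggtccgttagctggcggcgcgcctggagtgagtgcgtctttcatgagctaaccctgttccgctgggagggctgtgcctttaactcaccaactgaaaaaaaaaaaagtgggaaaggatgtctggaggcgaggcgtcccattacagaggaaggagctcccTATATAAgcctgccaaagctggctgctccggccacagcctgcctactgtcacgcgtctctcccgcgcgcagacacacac
Postn: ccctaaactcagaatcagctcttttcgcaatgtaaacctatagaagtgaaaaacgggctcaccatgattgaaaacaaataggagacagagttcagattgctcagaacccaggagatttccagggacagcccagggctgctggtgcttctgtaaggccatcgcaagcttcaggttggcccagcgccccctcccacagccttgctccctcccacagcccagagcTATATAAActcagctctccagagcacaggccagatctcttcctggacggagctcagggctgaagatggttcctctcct
Cyr61: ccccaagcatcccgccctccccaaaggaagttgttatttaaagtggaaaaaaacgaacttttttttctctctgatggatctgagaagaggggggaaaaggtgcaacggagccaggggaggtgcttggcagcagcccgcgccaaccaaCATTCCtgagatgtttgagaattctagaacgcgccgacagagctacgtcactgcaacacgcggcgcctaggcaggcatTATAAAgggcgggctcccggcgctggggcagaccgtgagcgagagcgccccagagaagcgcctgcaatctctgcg
The motifs searched on both strands were TATATAA and TATAAA, forms of the TATA box, which overlap where TATATAA is followed by A, GGAATG, the core that TEAD factors recognise, TGANTCA, which AP-1 recognises, and the CArG box of SRF. TATATAA began 29 bases before this start of Tnc and 28 bases before that of Postn, and 3.24% of 32851 promoter windows of the same length hold it. At the other start, the window of Tnc held TATAAA, 126 bases before it, and no TATATAA, and that of Postn held none of the motifs. TATAAA began 25 bases before the start of Cyr61, and 13.6% of all windows hold it. The window of Cyr61 also held GGAATG, written CATTCC on the strand shown, 103 bases before the start, which 14.7% of all windows do. Among the members not shown, the window of Thbs2 held TATAAA on the other strand, 126 bases before the start. A window of Spp1 held it 211 bases before, and those of Sparc and Tgfbi held none of the motifs. Neither TGANTCA, found in 7.81% of all windows, nor the CArG box, found in 1.63%, was in any of the members' windows. A match of letters is a description of the sequence and not a binding site.

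The levels fell into a few patterns. Line 16-6 was highest for 8 of the 10 members and R1 for the other two, Spp1 and Tgfbi. Line 32 was lowest for Tnc, Postn, Thbs1, Thbs2, Sparc and Tgfbi, while S8 was lowest for Fn1, Ctgf and Cyr61 and T2 for Spp1. The members together summed to 4401 and 4433 FPKM in 16-6, 2970 and 3288 in R1, 1167 in T2, 1011 in S8, and 916 and 923 in 32. The ratio of the highest to the lowest line mean ran from 2.79 for Cyr61 to 37.0 for Tnc. Libraries of the same line lay close together, with ratios of the higher to the lower library between 1.00 for Spp1 in 32 and 1.19 for Tgfbi in 32.

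**Figure D1:**
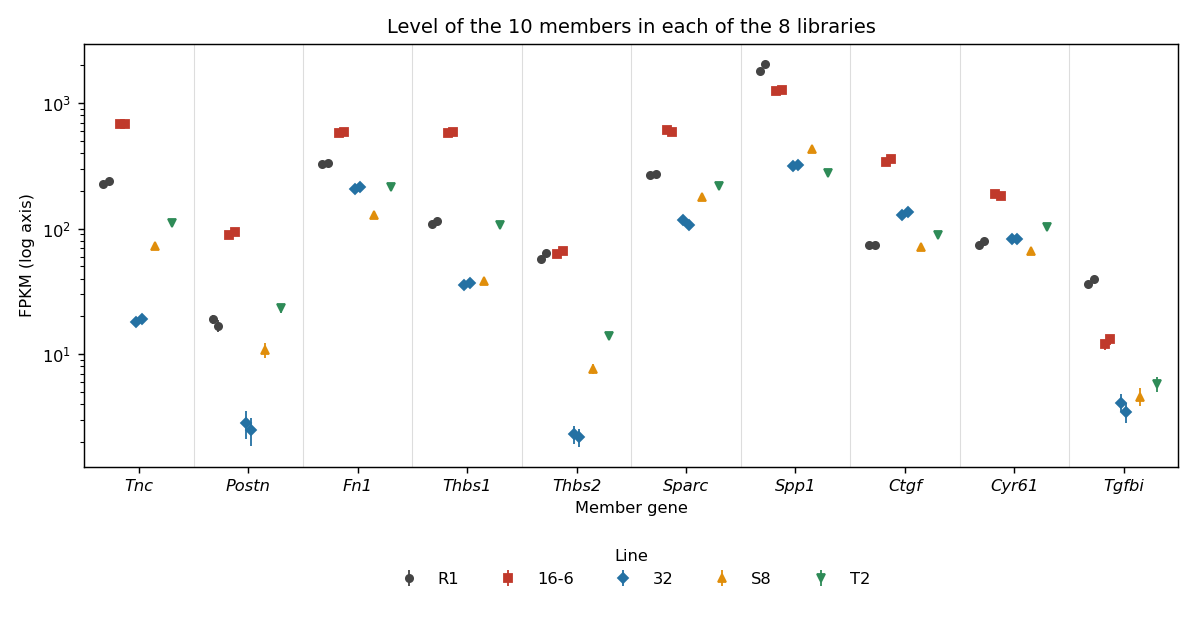
FPKM of the 10 members (horizontal axis) on a log axis, 1 point per library, coloured by line; bars are the deposited confidence limits, often smaller than the point. The line mean is highest in 16-6 (red squares) for 8 members and in R1 (grey circles) for Spp1 and Tgfbi. For Thbs2 the points of these lines overlap, and Tnc runs from 18.0 in 32 to 687 in 16-6.

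Tnc encodes a large multimeric glycoprotein that loosens the attachment of cells to fibronectin, and its locus in the files is chr4:63620819-63708049 (mm9, minus strand), while the gene annotated in the same build ends at 63681760. Tnc was at 687 and 682 FPKM in 16-6, 225 and 239 in R1, 112 in T2, 72.8 in S8, and 18.0 and 18.9 in 32. The 5 lines did not overlap, and the confidence limits of every neighbouring pair in this order were apart. The line mean of 16-6 was 37.0 times that of 32 and 2.95 times that of R1, and R1 was 12.5 times above 32. Among all gene entries Tnc stood at the percentile of 99.2 in its highest library and of 76.3 in its lowest.

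Postn (chr3:54165029-54194963, plus strand) encodes periostin, a protein of fasciclin domains that binds both tenascin C and collagen. Its level was lower than that of Tnc in every library, at 88.4 and 93.5 FPKM in 16-6, 23.3 in T2, 19.1 and 16.9 in R1, 10.8 in S8, and 2.83 and 2.49 in 32. The order differed from that of Tnc in that T2 lay above R1, by a factor of 1.30, with limits of 21.5 to 25.0 in T2 and an upper limit of 20.6 in R1. Line 16-6 was 34.2 times above 32, and the libraries of no pair of lines overlapped.

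Fn1 (chr1:71632097-71699745, minus strand) encodes fibronectin, the fibril-forming ligand of integrin alpha5 beta1 that carries many of the other members. It was at 578 and 584 FPKM in 16-6, 325 and 335 in R1, 216 in T2, 207 and 214 in 32, and 129 in S8. T2 and 32 were not set apart by their limits. Fn1 in 32 was 1.57 times below R1, against 12.5 times for Tnc, and the largest ratio between lines was 4.50, between 16-6 and S8.

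The thrombospondins Thbs1 and Thbs2 are paralogs that bind CD47 and CD36, and Thbs1 is known to activate latent TGF-beta. Thbs1 (chr2:117937658-117952869, plus strand) was at 575 and 585 FPKM in 16-6, 109 and 115 in R1, 107 in T2, 38.3 in S8, and 35.6 and 36.6 in 32. Line 16-6 stood far above the other lines, R1 and T2 had overlapping limits, and so had S8 and 32. Thbs2 (chr17:14802507-14831269, minus strand) was at 63.2 and 65.9 FPKM in 16-6, 57.1 and 64.4 in R1, 14.1 in T2, 7.66 in S8, and 2.30 and 2.17 in 32. Here the libraries of 16-6 and R1 overlapped, so the paralogs differed in where R1 stood: the mean of 16-6 was 5.17 times that of R1 for Thbs1 and 1.06 times for Thbs2. Both were lowest in 32, with 16-6 at 16.1 times the level of 32 for Thbs1 and 28.8 times for Thbs2.

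Sparc (chr11:55208003-55233582, minus strand) encodes osteonectin, a calcium-binding protein that binds collagen. It was at 613 and 588 FPKM in 16-6, 267 and 272 in R1, 218 in T2, 177 in S8, and 117 and 108 in 32, the same order of lines as for Tnc. All neighbours were set apart, but the range was smaller, with 16-6 at 5.34 times the level of 32.

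Spp1 (chr5:104864130-104870072, plus strand) encodes osteopontin, a phosphoprotein that engages integrins and CD44 and that macrophages and osteoblasts are known to make. Its level was the highest of the 10 members in each of the 8 libraries, at 1784 and 2053 FPKM in R1, 1258 and 1281 in 16-6, 433 in S8, 318 and 319 in 32, and 279 in T2. R1 was highest, 1.51 times above 16-6, and every neighbouring pair of lines was set apart by its limits. Unlike the members above, T2 and not S8 or 32 was lowest, 6.87 times below R1.

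Tgfbi (chr13:56710964-56740700, plus strand) encodes a TGF-beta-induced relative of periostin with the same kind of fasciclin domains. It was at 36.0 and 39.7 FPKM in R1, 12.0 and 13.1 in 16-6, 5.79 in T2, 4.60 in S8, and 4.13 and 3.47 in 32. R1 was 3.02 times above 16-6 and 9.96 times above 32, whereas its relative Postn was 5.07 times higher in 16-6 than in R1. The limits of T2 and S8 overlapped, and so did those of S8 and 32. The 7 macrophage markers also summed highest in R1, to 79.9 and 82.6 FPKM against 11.7 to 16.1 in the 6 other libraries, and all 7 had their highest line mean there. Lyz2 was at 44.5 and 48.9 FPKM in R1 and at 0.08 to 4.45 elsewhere, while the panleukocyte gene Ptprc, named after its values were seen, had a line mean of 0.37 FPKM in R1. Tyrobp, also named after its values were seen, was listed at 0 in both libraries of 16-6, both of 32 and that of T2. The part of macrophage RNA in the levels of Spp1 and Tgfbi in R1 was not tested.

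The CCN proteins Ctgf and Cyr61 are matrix-bound regulators whose genes are textbook targets of YAP and TEAD and respond within minutes to serum. Ctgf (chr10:24315248-24318488, plus strand) was at 338 and 359 FPKM in 16-6, 128 and 136 in 32, 88.3 in T2, 73.7 and 73.5 in R1, and 71.0 in S8. Line 32 thus stood in the second place for Ctgf, 1.79 times above R1, where it was the lowest line for Tnc, and R1 and S8 were not set apart. Cyr61 (chr3:145309935-145312949, minus strand) was at 188 and 181 FPKM in 16-6, 104 in T2, 82.8 and 83.5 in 32, 74.3 and 80.2 in R1, and 66.0 in S8. The limits of 32 and R1 overlapped, and 16-6 was 2.22 times above 32 and 2.39 times above R1. These genes had the smallest differences of all members between 16-6 and 32.

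The members were then compared between line means as differences in log2(FPKM + 1), a scale that understates differences of low genes. The 4 comparisons with R1 share the same R1 libraries and are therefore not independent of each other. Beside each count stands the share of 13693 tested gene entries (those that reached an FPKM of 1 in some library, as all 10 members did) that lay at least 2-fold apart in the same direction. Since the members were chosen with these comparisons in view, nothing is read from their excess over that share.

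In 16-6 against R1, 6 of the 10 members were at least 2-fold higher (all tested entries 3.94%), 1 was at least 2-fold lower (4.08%) and 3 lay under 2-fold. The difference was 2.36 for Thbs1, 2.28 for Postn, 2.23 for Ctgf and 1.56 for Tnc, and -1.52 for Tgfbi. Fn1, Thbs2 and Spp1 were the members under 2-fold, at 0.82, 0.09 and -0.59. The median of the members was 1.20, against -0.03 over all tested entries.

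In 32 against R1, no member was at least 2-fold higher (1.86%) and 7 were at least 2-fold lower (8.69%). Thbs2 stood at -4.25, Tnc at -3.58, Tgfbi at -3.02 and Spp1 at -2.58, with a median of -1.99 over the 10 members and -0.02 over all tested entries. Fn1 was at -0.65. The CCN genes were on the other side, Ctgf at 0.83 and Cyr61 at 0.11, and for Cyr61 this sign turned with quantile normalization, to -0.05.

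In S8 against R1, all 10 members were below R1 and 6 of them by at least 2-fold (10.3%), while none was 2-fold higher (7.25%). Thbs2 and Tgfbi were the farthest from R1, at -2.83 and -2.79, and Ctgf was the nearest, at -0.05, with limits that overlapped those of R1. The share of all tested entries that lay below R1 by any amount was not counted. In T2 against R1, 4 members were at least 2-fold lower (7.09%), namely Spp1 at -2.77, Tgfbi at -2.51, Thbs2 at -2.03 and Tnc at -1.04, and none was 2-fold higher (4.4%). The other 6 lay between -0.61 for Fn1 and 0.42 for Cyr61. The medians of the members were -1.44 in S8 and -0.46 in T2, against -0.03 over all tested entries in either comparison. S8 and T2 had 1 library each, so these differences have no replicate check within those lines.

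In 16-6 against 32, both of mesodermal origin, all 10 members were at least 2-fold higher in 16-6 (9.63%) and none was lower (1.45%). Tnc came first at 5.14, followed by Postn at 4.65, Thbs2 at 4.34 and Thbs1 at 3.97. Sparc, Spp1, Tgfbi, Fn1 and Ctgf lay between 2.41 and 1.40, and Cyr61 was last at 1.14. The median was 2.20, against -0.06 over all tested entries.

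**Figure D2:**
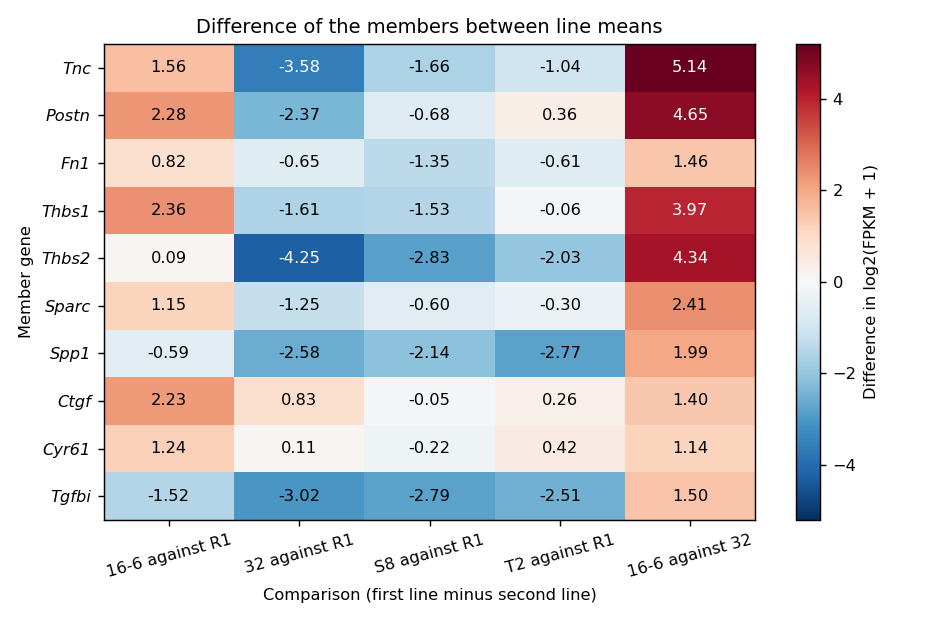
Difference in log2(FPKM + 1) between line means (first line minus second line; colour and number) for the 10 members in 5 comparisons. All 10 values of 16-6 against 32 are above 1, from 1.14 for Cyr61 to 5.14 for Tnc. Against R1 the sign varies between members except in S8, where all are below 0, Ctgf only by 0.05.

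The 14 fibroblast markers moved with several members. Every one of the 14 had its lowest line mean in 32, and 10 of them had their highest in 16-6. Their sum was 23.5 times higher in 16-6 than in 32, 13.4 times higher in R1 than in 32, and 1.75 times higher in 16-6 than in R1. Col1a1, Col1a2 and Thy1, the markers of the highest level in 16-6, had line means of 583, 427 and 222 FPKM in 16-6 and of 28.4, 13.6 and 8.96 in 32. The other 4 markers were highest in R1, as Spp1 and Tgfbi were. Among them, named after their values were seen, the proteoglycan genes Dcn and Lum were at 217 and 204 FPKM and at 50.6 and 59.2 in R1, and at 32.9 and 33.3 and at 7.08 and 7.91 in 16-6. The rest of these 4, Col3a1 and Pdgfra, were nearly level, with line means of 106 and 9.55 FPKM in R1 and of 91.7 and 9.02 in 16-6.

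Each member was set against this sum in the same library. Tnc amounted to 24.5% and 25.0% of the fibroblast marker sum in R1, 41.7% and 42.0% in 16-6, 26.0% and 27.0% in 32, 18.5% in S8 and 20.1% in T2. On this scale the ratio of the highest to the lowest line was 2.26 for Tnc, where it was 37.0 in FPKM. Postn, from 1.92% in R1 to 5.57% in 16-6, and Thbs2, from 1.95% in S8 to 6.49% in R1, also kept within a narrow band, with ratios of 2.90 and 3.33. The sum is weighted towards its highest genes, so a single marker can give another range. Dcn, named after its values were seen, had line means of 210 FPKM in R1, 33.1 in 16-6 and 0.75 in 32. Those of Tnc were 232, 685 and 18.5.

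The remaining members did not keep such a band, and 7 of the 10 had their highest percentage in 32. The sum itself was lowest in 32, at a mean of 69.7 FPKM, with S8 next at 394. By arithmetic, any gene that fell less than the sum in 32 has its highest percentage there, as Sparc does although its FPKM was lowest in 32. The share of all genes that do so was not counted, and nothing is read from this count. Ctgf was at 189% of the sum in 32 and at 7.87% to 21.3% in the other lines, and Cyr61 at 119% in 32 and at 8.26% to 18.7% in the others. Fn1 stood at 302% in 32, while its values in R1, 16-6, S8 and T2, between 32.8% and 38.7%, were close to each other. Sparc likewise was at 161% in 32 and at 28.8% to 45.0% elsewhere. Spp1 ranged from 50.2% in T2 to 457% in 32, and Tgfbi from 0.77% in 16-6 to 5.46% in 32. For Thbs1 the range ran from 9.72% in S8 to 51.8% in 32. The part of fibroblast RNA in the members' differences was not tested, and RNA of the feeder layer cannot be told apart from RNA of fibroblast-like cells of the lines themselves.

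**Figure D3:**
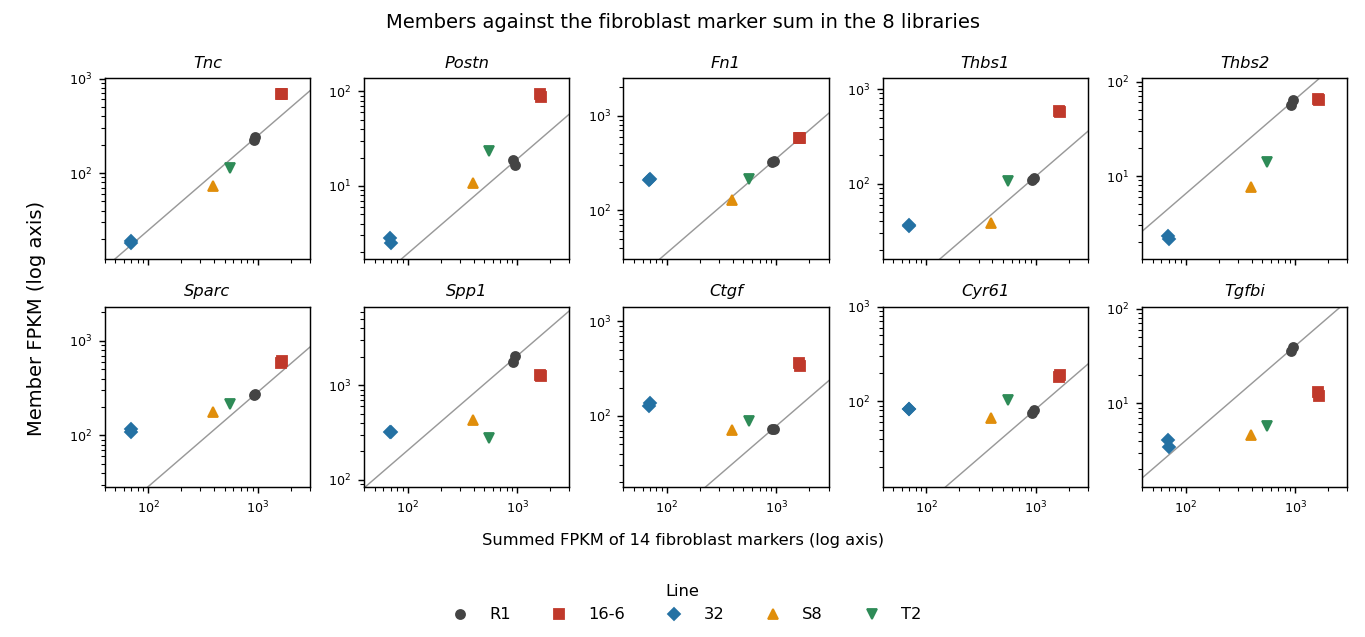
FPKM of each member (vertical log axis) against the summed FPKM of 14 fibroblast markers (horizontal log axis), 1 point per library; the grey line marks the ratio found in R1. Tnc follows the line from 32 to 16-6, at 18.5% to 41.9% of the sum in every line mean, whereas the blue points of 32 lie far above it for Fn1, Ctgf and Cyr61.

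The 9 primitive endoderm markers, of a tissue that also makes matrix, summed to 20.6 and 21.1 FPKM in 16-6, 20.9 and 21.8 in 32, 24.5 and 27.3 in R1, 9.96 in S8 and 11.5 in T2. The near-equal sums of 16-6 and 32 hid opposite differences, with Dab2 at line means of 10.7 FPKM in 16-6 and 1.78 in 32 and Lama1 at 5.62 and 16.0. Sox17, a defining marker, was at 0.09 to 0.28 FPKM in every library. The 4 endothelial markers summed to 4.93 and 5.92 FPKM in R1 and to 2.05 to 3.34 in the 6 other libraries. Between 16-6 and 32 the pluripotent cell markers stood the other way round from the members, with sums of 2711 and 2776 FPKM in 16-6 and of 5305 and 4507 in 32, and 0 of the 10 had a higher mean in 16-6. Dppa5a was the largest part of each of these sums, at 793 and 831 FPKM in 16-6 and 2362 and 1508 in 32.

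The genes whose pattern was most like that of Tnc were sought among all tested entries, by the root mean square difference of log2(FPKM + 1) centred on each gene's mean over the 8 libraries. The nearest 5 that are not members were Cdh11, a mesenchymal cadherin, at 0.32, Col1a2, a chain of type I collagen, at 0.34, Emp1, a membrane protein, at 0.35, Ltbp2, a matrix protein of microfibrils, at 0.35, and Col6a3, a chain of type VI collagen, at 0.35. Cdh11, for example, had line means of 82.0 FPKM in 16-6, 30.7 in R1, 17.5 in T2, 11.8 in S8 and 3.20 in 32, the same order of lines as Tnc. Of the members, Postn came closest at 0.51, followed by Thbs2 at 0.55 and Thbs1 at 0.75. Among all tested entries other than Tnc these had ranks of 26, 32 and 86, and Ctgf, the farthest member, had 2111. Every entry nearer to Tnc than Postn was thus outside the group. Sparc stood at 1.05, Spp1 at 1.22, Fn1 at 1.38, Tgfbi at 1.40, Cyr61 at 1.58 and Ctgf at 1.69. The order is a description over 8 libraries of 5 lines.

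Partner genes of the members, none of them a member, were tested next with limma over all 13693 entries. They form 4 lists taken from general knowledge of these proteins but drawn up with earlier results of these libraries known, with 97 genes of which 83 were expressed enough to be tested. A gene passed the threshold with an adjusted p (Benjamini-Hochberg) under 0.05 together with a difference of 2-fold or more. Beside each count stands, in brackets, the share of all tested entries that passed in the same direction. In 16-6 against 32, 46 partner genes were higher in 16-6 (9.22%) and 1 was lower (1.09%). In 16-6 against R1, 23 were higher (3.58%) and 4 lower (3.53%). In 32 against R1, 1 was higher (1.54%) and 33 lower (8.23%), and quantile normalization changed the split over all entries from 211 higher and 1127 lower to 391 and 752. In S8 against R1, 2 were higher (6.93%) and 32 lower (9.74%), and in T2 against R1 3 were higher (3.95%) and 19 lower (6.54%). Of the calls against R1, 1 in 16-6, 1 in 32, 2 in S8 and 1 in T2 were of genes that met the filter through R1 alone. Without S8 and T2 the fit gave the same counts for the other comparisons, 47, 27 and 34 in all. The fibroblast marker sum moved in the direction of most of these calls in each comparison, and its part was not tested.

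Other matricellular genes and relatives of the members were higher in 16-6 than in 32 for 8 of 11 tested genes (all tested entries 9.22%). The other 3 did not pass. Wisp1, another CCN gene, was higher by 3.79 (SE 0.10) on the log2 scale with an adjusted p of 1.56e-05 by limma, at means of 32.4 and 1.42 FPKM. Ecm1, a secreted matrix glycoprotein, was higher by 3.12, the follistatin-like relative of Sparc Fstl1 by 2.86, and Smoc2, which shares a domain with Sparc, by 1.91. Against R1, Sparcl1, the closest relative of Sparc, was lower by 2.51 on the log2 scale in S8 and by 2.23 in T2, where Sparc itself differed from R1 by -0.60 and -0.30. Fstl1 was lower in S8, at -1.72, and Ecm1 in T2, at -1.50.

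Among receptors, 9 of 19 tested genes were higher in 16-6 than in 32 (all tested entries 9.22%) and none was lower (1.09%). Cd44, a receptor of osteopontin and hyaluronan, was higher by 3.89 (SE 0.05, limma adjusted p = 2.44e-06), from a mean of 6.80 FPKM in 32 to 115 in 16-6. Lrp1, a scavenger receptor that takes up thrombospondins and CCN proteins, was higher by 3.35, the thrombospondin receptor Cd47 by 2.50, and Itga5, which pairs with integrin beta1 to bind fibronectin, by 2.37. Against R1, S8 was lower for Cd47, at -2.15. Cd36 also passed in S8 at -2.10 and in T2 at -2.02, but it entered the test through R1 alone, with a mean of 3.67 FPKM there and at most 0.36 in any other library, and its value therefore had to differ. The macrophage markers were likewise highest in R1, and their part was not tested. Itga3, a laminin-binding integrin of epithelia, was higher in T2 than in R1, at 34.9 against 9.63 FPKM (1.76 on the log2 scale, limma adjusted p = 0.000204).

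The list of TGF-beta signalling genes and of YAP, TEAD and SRF regulators had 9 of 22 genes higher in 16-6 than in 32 (all tested entries 9.22%). In the same comparison 1 gene was lower (1.09%). Ltbp1, which holds latent TGF-beta in the matrix, was higher by 3.36 (SE 0.06, limma adjusted p = 5.35e-06), the ligand Tgfb3 by 3.02, and the receptors Tgfbr2 and Tgfbr3 by 2.77 and 2.01. The other genes that were higher, named with those that follow after their values were seen, were Tgfb1, Tgfb2, Lats2, Tead3 and Wwtr1, the last 3 at 1.90, 1.20 and 1.17. Of the TGF-beta signalling genes, Tgfbr1 (-0.43), Smad2 (-0.30), Smad4 (-0.22), Smad7 (0.15) and Smad3 (0.88) did not pass. Yap1 and Srf did not pass either, at -0.07 (limma adjusted p = 0.405) and 0.07 (limma adjusted p = 0.331). Tead4, the one gene that was lower, was at 2.95 FPKM in 16-6 and 7.03 in 32. Against R1, Tgfbr3 was lower by 2.83 in S8 and by 2.10 in T2 on the log2 scale, Wwtr1, which encodes TAZ, was lower in S8 at -1.72, and Tead4 was lower in T2 at -1.48.

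Of the YAP and TEAD target genes and proteases, 20 of 31 were higher in 16-6 than in 32 (all tested entries 9.22%). None was lower (1.09%), and the median over the list was 2.33. The list joins targets with proteases, so this count and median describe neither kind alone. The other 11 genes did not pass, and they are named after their values were seen. Most are listed as targets: Amotl2 (0.82), Asap1 (0.75), Ptpn14 (0.67), Nuak2 (0.55), Nt5e (0.28), Gadd45b (0.25), Dock5 (0.12), Fjx1 (0.08) and Igfbp3 (-0.30). The matrix enzyme genes Tgm2 (0.66) and Adamts1 (0.30) did not pass either. Mmp3, a matrix metalloproteinase that cleaves fibronectin and other matrix proteins, was higher by 5.45 (SE 0.16, limma adjusted p = 1.77e-05), at 63.0 FPKM in 16-6 and 0.48 in 32. Axl, a receptor tyrosine kinase, was higher by 3.88, and Plau, which encodes the protease urokinase, by 3.77. Mmp3 was not highest in 16-6: its mean in R1 was 216 FPKM, and it lay below R1 at -4.29 in S8 and -4.37 in T2. Serpine2, a protease inhibitor, was lower in S8 than in R1, at -1.95, and the gelatinase gene Mmp9 was lower in T2, at -2.12.

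**Figure D4:**
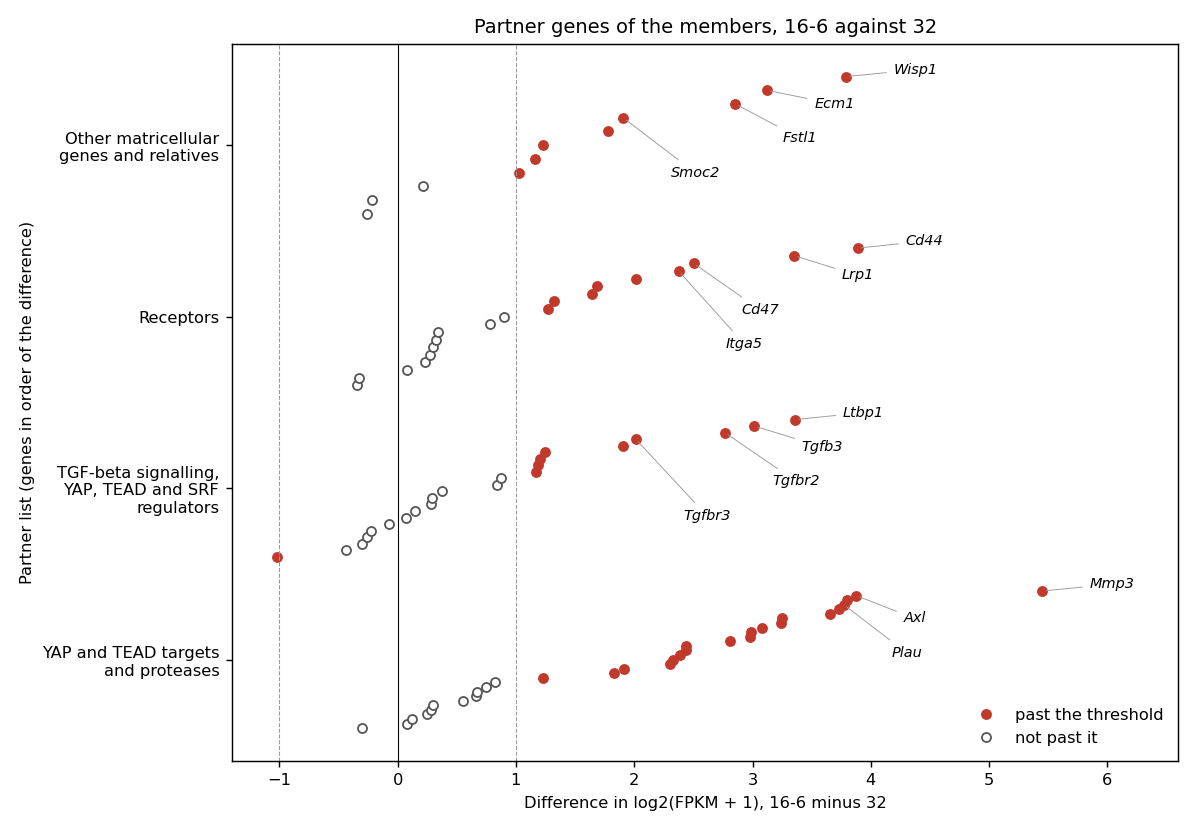
Difference in log2(FPKM + 1) between 16-6 and 32 for 83 tested partner genes in 4 lists, in order of the difference within a list; filled circles passed the limma threshold and dashed lines mark 2-fold. Points past the threshold lie to the right of 1 for 46 genes, from Sparcl1 at 1.02 to Mmp3 at 5.45, and to the left of -1 for Tead4 alone.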

How the data were processed

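Paired-end RNA-seq of 8 libraries was analysed. Reads were aligned by the authors with TopHat 2.0.4 to mm9 (UCSC genes), and only unique matches were retained. The deposited FPKM and their confidence limits came from Cufflinks, for which the submitters' processing notes give version 2.0.0. Strand was not given in the sources used here. Libraries were grouped by line from the labels. Labels name embryos as the source of RNA, the methods cell pellets. The deposited FPKM were divided by 12726, so that the median library summed to 1000000, and the 8 tables were joined on gene name, locus and start site. Fragments behind a value were estimated as the square of 2 × FPKM divided by the distance to the upper limit. Lines next to each other in the order of a gene were called set apart where the limits of every library of one lay outside those of the other.

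log2(FPKM + 1) of entries that reached an FPKM of 1 in 1 library or more was fitted with limma 3.58.1 (lmFit, eBayes with a trend; R 4.3.3; 1 term for the line, 3 residual degrees of freedom, all 8 libraries), so S8 and T2 are assumed to vary like the other lines. P-values measure the spread between libraries of the same line. Genes passed at a Benjamini-Hochberg adjusted p below 0.05 and a log2 difference of at least 1. On simulated data for 16-6 against 32 (13693 genes), every gene had the same normal spread, the median of the replicate spreads. Genes near the floor were not changed. There, 100% of the genes changed by 1.5, 2 or 3 on the log2 scale were recovered with 0 false calls, with a mean bias of -0.14 at 3. All changes exceeded the cut-off and the noise was simpler than in real libraries, so the error rate in these data was not measured. Members and lists were chosen with earlier results of these data known. Partner genes named are the 4 per list with the largest difference past the threshold in 16-6 against 32 and 2 per list in each of S8 and T2 against R1; 1 of them is not reported here. The alternatives were a pseudocount of 0.1, other filters, quantile normalization, no trend, left-out replicates and a replicate block. Tables and figures were made with pandas 2.3.3 and matplotlib 3.10.9 in Python 3.11.15.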

Additional observations from a re-analysis of the deposited data

How the results depend on the processing

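Counts of all genes past the limma threshold changed by more than 1.5 times under a pseudocount of 0.1, to 1690 from 974 in 16-6 against R1, 2258 from 1338 in 32 against R1 and 2198 from 1437 in T2 against R1. A filter of 1 FPKM in every library, which tests fewer genes, gave 565, 740 and 940 in these comparisons and 859 in place of 1412 in 16-6 against 32. For 32 against R1, quantile normalization gave 391 higher and 752 lower in place of 211 and 1127. The counts of partner genes stayed within 1.5 times under every alternative tried, and no named partner gene lost its call where it was still tested. Of 50 member differences, Cyr61 in 32 against R1 turned its sign, to -0.05 with quantile normalization, and none crossed 2-fold. The sizes were less stable. With quantile normalization 37 of the 50 moved by at least the gene's mean standard deviation between replicates, and 12 did with a pseudocount of 0.1.

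Replicates with the same number did not deviate together (correlations of -0.10, 0.00 and 0.03 between lines, across genes), and with the replicate block on the 6 libraries of R1, 16-6 and 32 the counts were 971, 1342 and 1413, with 27, 34 and 47 partner genes. Libraries of a line differed by 1.39 to 1.69 times the sampling variance, so none was counted as a duplicate. This ratio cannot tell separate cultures from libraries of the same culture. The limma p-values may therefore leave out variation between cultures. No counts of reads were in the tables used here, and low values such as Postn and Thbs2 in 32 rest on few fragments, from 62.4 upwards.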
